A study of Mus musculus with 20 samples.

Results

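Leydig cells of the mouse testis make androgens and the hormone INSL3, and 10 genes of this programme were followed, out of 23366 genes in the RNA count table. They were chosen by name: the LH receptor gene Lhcgr, the cholesterol carrier Star, the steroidogenic enzymes Cyp11a1, Cyp17a1, Hsd3b1, Hsd3b6, Hsd17b1, Hsd17b3 and Srd5a1, and Insl3. All 10 were found in the table, and all 10 were among the 16872 genes that passed a filter on low counts. Of them, 3 (Hsd17b1, Hsd17b3 and Lhcgr) reached the filter's cutoff of 1.07 counts-per-million (CPM) in both libraries of a stage only in whole testis, and 1 (Hsd3b6) only in a spermatocyte fraction. For these 4 genes the filter itself selected a contrast between testis and spermatocytes, so their differences between those are given below as descriptions, with no p.

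The RNA was sequenced from wild-type C57Bl/6J mice, with 2 biological replicates, n1 and n2, in each of 5 stages. The first 3 stages were whole testis taken on day 1, day 3 and day 7 after birth. The other 2 were leptotene/zygotene spermatocytes and pachytene spermatocytes, early and middle stages of the first meiotic division, enriched from adult testes between day 70 and day 80 by sedimentation at unit gravity (STA-PUT). Every group was wild type and untreated, and whether testes of several animals were pooled was not given in the sources used here. The step to spermatocytes therefore changes age and purification together, and these cannot be told apart in this design. In bulk RNA, fewer cells of a type and less RNA per cell cannot be told apart either.

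The 10 libraries held between 3597360 and 22181395 counts on genes, and 3 counts corresponded to between 0.0999 and 1.46 CPM. CPM here used library sizes scaled by edgeR's TMM factors. The leptotene/zygotene libraries held markers of a later germ cell stage than their label names. Summed over 8 spermatid markers, the leptotene/zygotene libraries held 49450 and 60020 CPM, the pachytene libraries held 6364 and 4500 CPM, and whole testis between 2.317 and 31.23 CPM. The protamine gene Prm2, a spermatid gene, was also above 5 CPM in both day 1 libraries and in day 3 n2, at 8.998, 9.318 and 6.593 CPM, against 0.03331 CPM in day 3 n1 and at most 0.06143 CPM on day 7. Microscopy had shown no somatic cells in either fraction, per the labels. Summed over 11 Sertoli cell markers, the fractions held 185.8 and 62.73 CPM in leptotene/zygotene and 365.2 and 250.6 CPM in pachytene cells, compared with 3290 to 4681 CPM in whole testis. The part of spermatid and Sertoli cell RNA in the results on the spermatocyte fractions was not tested. Below, leptotene/zygotene cells and pachytene cells mean the fractions as labelled.

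Leydig cells lie between the seminiferous tubules and turn cholesterol into testosterone under luteinizing hormone. STAR brings cholesterol into the mitochondrion, CYP11A1 cuts its side chain to give pregnenolone, and the 3-beta-hydroxysteroid dehydrogenases, CYP17A1 and 17-beta-hydroxysteroid dehydrogenases lead on to androstenedione and testosterone. The testis at birth holds a fetal Leydig population, which later gives way to an adult one. In the mouse, HSD3B6 is the isoform known from adult Leydig cells, and in the fetal testis the last step, by HSD17B3, is carried out largely in Sertoli cells.

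RefSeq promoter windows (build GRCm38.p6) were matched by symbol for 7 of the 10 genes, none of them Star, Cyp17a1 or Hsd17b1. The 150 bases before the start site that the table uses are printed for 5 genes whose levels behaved in different ways over the stages: Hsd3b1, which was high in testis, its paralogue Hsd3b6, which was near 0 there, Hsd17b3, which was at a few counts in spermatocytes, Srd5a1, which differed least between stages, and Insl3. The sequences run 5′ to 3′ on the strand of the gene, and capitals mark CG pairs.

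Hsd3b1, chr3:98859795-98859944, minus strand: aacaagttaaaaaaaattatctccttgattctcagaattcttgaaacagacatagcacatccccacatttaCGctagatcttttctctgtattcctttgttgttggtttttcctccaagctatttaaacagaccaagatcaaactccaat

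Hsd3b6, chr3:98814444-98814593, minus strand: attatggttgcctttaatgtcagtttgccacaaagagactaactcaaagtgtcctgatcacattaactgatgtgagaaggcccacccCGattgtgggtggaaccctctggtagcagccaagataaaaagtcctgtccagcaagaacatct

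Hsd17b3, chr13:64089202-64089351, minus strand: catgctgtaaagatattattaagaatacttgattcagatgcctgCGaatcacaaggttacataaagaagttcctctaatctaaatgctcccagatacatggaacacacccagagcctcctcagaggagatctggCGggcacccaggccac

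Srd5a1, chr13:69611464-69611613, minus strand: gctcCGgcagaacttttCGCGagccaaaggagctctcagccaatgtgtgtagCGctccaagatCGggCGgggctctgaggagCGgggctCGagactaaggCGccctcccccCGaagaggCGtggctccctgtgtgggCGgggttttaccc

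Insl3, chr8:71689102-71689251, plus strand: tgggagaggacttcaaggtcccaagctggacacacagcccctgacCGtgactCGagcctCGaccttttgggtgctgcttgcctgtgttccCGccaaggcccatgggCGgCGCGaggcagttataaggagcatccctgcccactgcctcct

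The Srd5a1 window held 12 CG pairs at 65.3% GC, and the Insl3 window held 7 at 62.7% GC. The Hsd3b1 and Hsd3b6 windows held 1 each, at 34% and 45.3% GC, and the Hsd17b3 window held 2. The median over all 32851 windows of that length was 4 CG pairs. The windows of Srd5a1, which varied little between testis and spermatocytes, and of Lhcgr, which did not share that profile, were both rich in CG pairs, with 12 and 11. The GATA motif AGATAA, searched on both strands, was found in the Hsd3b1 window at -134 to -129 (on the minus strand of the window) and in the Hsd3b6 window at -31 to -26. It was present in 5.65% of all windows. The motif CAAGGNCA, bound by SF-1 (the product of Nr5a1), had no match in any of the 8 windows of the 7 genes, and 3.09% of all windows held one.

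The values in every library show an arrangement shared by most of the genes, with high levels in whole testis and low ones in the spermatocyte fractions. Lhcgr, the receptor through which luteinizing hormone acts, had 11.22 and 11.91 CPM on day 1, 7.527 and 12.37 CPM on day 3, and 8.331 and 14.13 CPM on day 7. It had 0.9728 and 0.1002 CPM in leptotene/zygotene cells, and 0 and 0.1377 CPM in pachytene cells. The 3 ages of testis overlapped, and no spermatocyte library reached the lowest testis library.

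**Figure D1:**
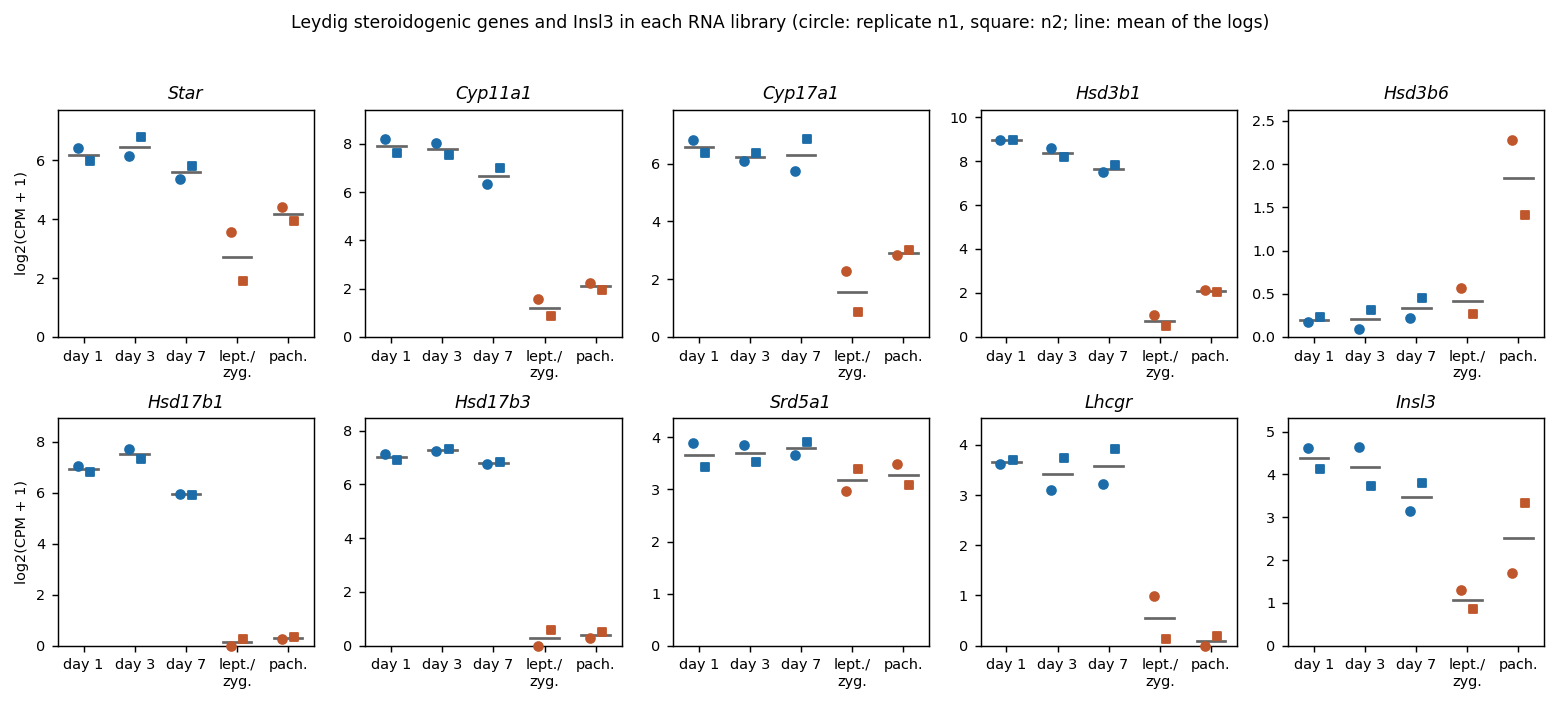
Each panel plots 1 gene, with log2(CPM + 1) on the vertical axis and the 5 stages on the horizontal axis. Circles are replicate n1, squares are replicate n2 and lines are the mean of the 2 log values. The axes differ between panels. Most genes drop between day 7 testis and the spermatocyte fractions, Srd5a1 stays between 6.81 and 14.13 CPM in every library, and Hsd3b6 is highest in pachytene cells.

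Star had 83.7 and 61.95 CPM on day 1, 69.14 and 108.2 CPM on day 3, and 39.94 and 55.28 CPM on day 7. It had 10.7 and 2.706 CPM in leptotene/zygotene cells and 20.14 and 14.18 CPM in pachytene cells. The day 7 libraries lay below all 4 earlier testis libraries, and both pachytene libraries lay above both leptotene/zygotene libraries. Cyp11a1, the first and rate-limiting enzyme of the pathway, had 291.4 and 195 CPM on day 1, 262 and 182.7 CPM on day 3, and 79.12 and 125.8 CPM on day 7. It had 1.946 and 0.8016 CPM in leptotene/zygotene cells and 3.662 and 2.891 CPM in pachytene cells. Day 1 and day 3 overlapped, and day 7 was below both.

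Hsd3b1, which makes progesterone from pregnenolone, had 501.9 and 497.7 CPM on day 1, 386 and 286.1 CPM on day 3, and 177.5 and 225.2 CPM on day 7. In leptotene/zygotene cells it had 0.9728 and 0.4008 CPM, and in pachytene cells 3.459 and 3.166 CPM. The 3 ages of testis did not overlap and stood in the order day 1, day 3, day 7. Its paralogue Hsd3b6 had at most 0.3686 CPM in any testis library, from 1 to 6 counts each, and 0.4864 and 0.2004 CPM in leptotene/zygotene cells. It had 3.866 and 1.652 CPM in pachytene cells, from 19 and 12 counts. The sequences of these paralogues are alike enough for reads to be shared, and how the authors' counting treated such reads was not given in the sources used here, so the level of Hsd3b6 is uncertain.

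Cyp17a1, whose product gives androgen precursors from progesterone or pregnenolone, had 112.3 and 81.45 CPM on day 1, 67.14 and 80.99 CPM on day 3, and 53.35 and 115.1 CPM on day 7. It had 3.891 and 0.8016 CPM in leptotene/zygotene cells and 6.104 and 7.021 CPM in pachytene cells. On day 7 alone its libraries spanned both the lowest and the highest testis values, so no order of ages could be read for Cyp17a1.

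Hsd17b1 and Hsd17b3 code for reductive enzymes of the last step, the first best known for oestradiol and, in the mouse, able to make testosterone too. Hsd17b1 had 130.3 and 112.7 CPM on day 1, 210.4 and 157.9 CPM on day 3, and 60.47 and 59.95 CPM on day 7. The 3 ages did not overlap, and day 3 was the highest. Hsd17b3 had 138.1 and 117.9 CPM on day 1, 149.2 and 158.9 CPM on day 3, and 106.3 and 114.1 CPM on day 7. It kept the same order of ages as Hsd17b1 with smaller distances between them. In the 4 spermatocyte libraries both genes were at or below 0.501 CPM, from 5 counts or fewer, and both were at 0 in leptotene/zygotene n1, where 3 counts would have been 1.46 CPM.

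Srd5a1, the 5-alpha-reductase that turns testosterone into dihydrotestosterone, had 13.93 and 9.75 CPM on day 1, 13.52 and 10.5 CPM on day 3, 11.64 and 14.13 CPM on day 7, 6.81 and 9.519 CPM in leptotene/zygotene cells and 10.17 and 7.434 CPM in pachytene cells. The ages of testis overlapped, and so did the 2 spermatocyte fractions. Insl3, a Leydig cell hormone that acts on testis descent, had 23.67 and 16.57 CPM on day 1, 23.88 and 12.29 CPM on day 3, and 7.889 and 13.02 CPM on day 7. It had 1.459 and 0.8016 CPM in leptotene/zygotene cells and 2.238 and 9.086 CPM in pachytene cells. The pachytene library n2 lay above the lower day 7 library. The Insl3 locus overlaps Jak3 in the RefSeq annotation (GRCm38.p6), and the use of strand in counting was not given in the sources used here. Jak3, which codes for a cytokine receptor kinase, had 3.891 and 25.55 CPM in leptotene/zygotene cells and 4.68 and 16.25 CPM in pachytene cells. In the pachytene fraction Insl3 and Jak3 were both higher in n2 than in n1. In the leptotene/zygotene fraction Jak3 was higher in n2 and Insl3 was not. The part of Jak3 in the Insl3 values was not tested.

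Day 3 and day 1 testes were compared to ask what changed within the first days after birth. None of the 10 genes passed edgeR's quasi-likelihood test at an adjusted p under 0.05, and neither did any gene of the table (0% higher and 0% lower of 16872 genes). Unadjusted, 1097 genes of the table had a p under 0.05, and DESeq2 called 79 genes, none of them among the 10. Hsd17b1 had a log2 fold change of 0.60 ± 0.25 (SE, n = 2 each) with an edgeR adjusted p of 0.732, and Hsd3b1 had -0.57 ± 0.26 with an edgeR adjusted p of 0.769. The median of the 10 log2 fold changes was -0.136, and the median over all tested genes was -0.00436.

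Between day 7 and day 3, Hsd17b1 fell and was the 1 gene of the 10 past the test, with a log2 fold change of -1.61 ± 0.26 and an edgeR adjusted p of 0.0248. Of all tested genes, 0.931% were higher and 0.563% lower on day 7. Cyp11a1 had -1.12 ± 0.35 (edgeR adjusted p = 0.158), Star had -0.90 ± 0.47 (0.446), Insl3 had -0.80 ± 0.55 (0.59) and Hsd3b1 had -0.74 ± 0.26 (0.221). Cyp17a1 and Lhcgr, at 0.19 ± 0.46 and 0.18 ± 0.46, did not share that direction. The median of the 10 genes was -0.611, against -0.0225 over all tested genes. The Hsd17b1 call was lost when either day 1 library, day 3 n1 or either day 7 library was left out. Its log2 fold change lay between -1.778 and -1.486 in those fits, and the lowest with any library left out was -1.997. In a fit of the 6 testis libraries alone, 3 of the genes were called, Hsd17b1 with Cyp11a1 and Hsd3b1, while calls over the whole table went up to 2126, compared with 252 in the fit of all stages.

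Between day 7 and day 1, Hsd3b1 fell and was again the 1 gene past the test, with a log2 fold change of -1.31 ± 0.26 and an edgeR adjusted p of 0.0328. Of all tested genes, 1.08% were higher and 2.28% lower on day 7. Cyp11a1 had -1.25 ± 0.35 (edgeR adjusted p = 0.083), Hsd17b1 had -1.01 ± 0.26 (0.0645) and Insl3 had -0.94 ± 0.55 (0.435). Hsd17b3 had -0.22 ± 0.27, and Lhcgr, Cyp17a1 and Srd5a1 lay between -0.20 and 0.13. The median of the 10 was -0.414 and that of all tested genes 0. The Hsd3b1 call was lost when any of the 4 libraries compared was left out, with log2 fold changes from -1.534 to -1.206 and adjusted p up to 0.333. A fit of the 6 testis libraries alone called 3 of the genes (Hsd3b1, Cyp11a1 and Hsd17b1) and 2962 genes of the whole table, compared with 567 in the fit of all stages. The comparisons of day 7 with day 3 and with day 1 share the day 7 libraries.

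**Figure D2:**
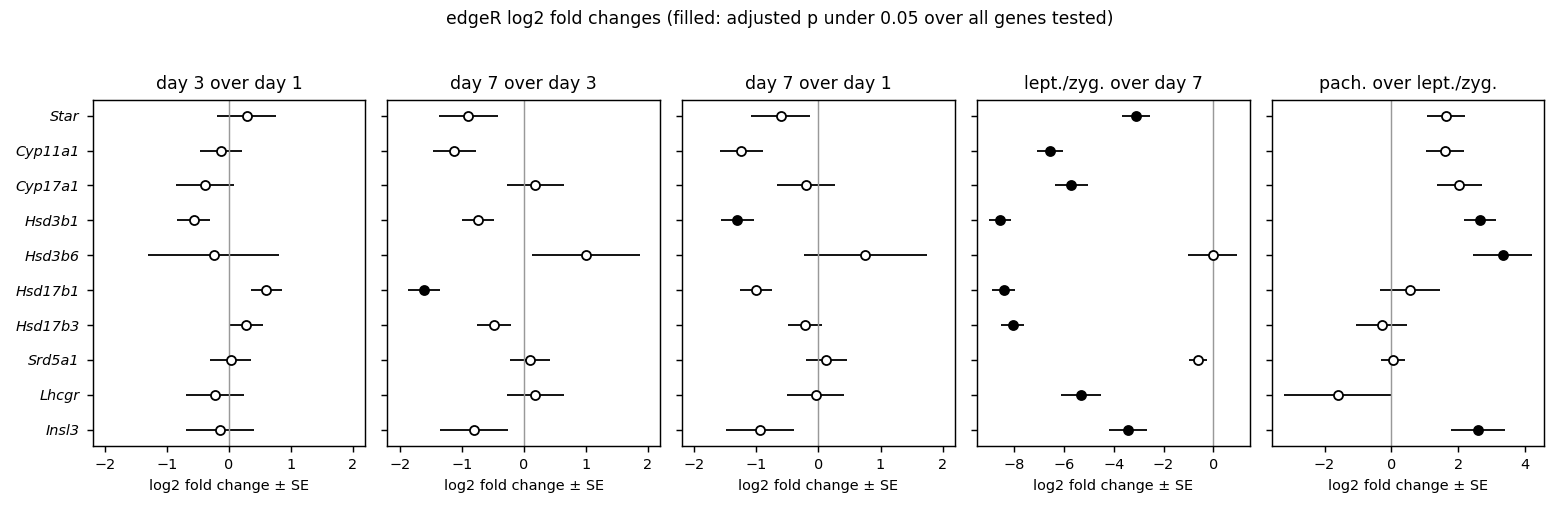
Log2 fold changes of the 10 genes in the 5 comparisons, the later stage over the earlier, with bars of 1 SE from edgeR. Filled points have an adjusted p under 0.05 over all genes tested, and the horizontal scales differ between the testis panels and the other 2. Few points are filled in the testis comparisons, 8 are filled below 0 for leptotene/zygotene over day 7, and 3 above 0 for pachytene over leptotene/zygotene. In these last 2 panels Hsd17b1, Hsd17b3 and Lhcgr (over day 7) and Hsd3b6 (pachytene) had passed the low-count filter only through the higher side.

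Shares of counts within a library do not depend on how libraries are scaled, and they show which steps changed relative to each other. Hsd17b3 made up 51.4% and 51.1% of the counts of Hsd17b3 and Hsd17b1 together on day 1, 41.5% and 50.2% on day 3, and 63.7% and 65.5% on day 7. The exact binomial 95% intervals on day 7, 62% to 65.4% and 63.8% to 67.3%, lay above those of the 4 earlier libraries. Cyp17a1 made up 27.8% and 29.5% of the counts of Cyp17a1 and Cyp11a1 together on day 1, 20.4% and 30.7% on day 3, and 40.3% and 47.8% on day 7. In both pairs the day 7 libraries stood above all 4 earlier ones. These intervals cover counting error only, and with 2 libraries against 2 or 4 the shares are given without a test. The pairs were chosen with the levels known. Star as a share of Star and Cyp11a1 did not set day 7 apart, with 33.5% and 30.5% on day 7 against 37.2% in day 3 n2. Hsd3b6 as a share of Hsd3b6 and Hsd3b1 rested on at most 6 counts of Hsd3b6 per testis library and is not compared by age.

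**Figure D3:**
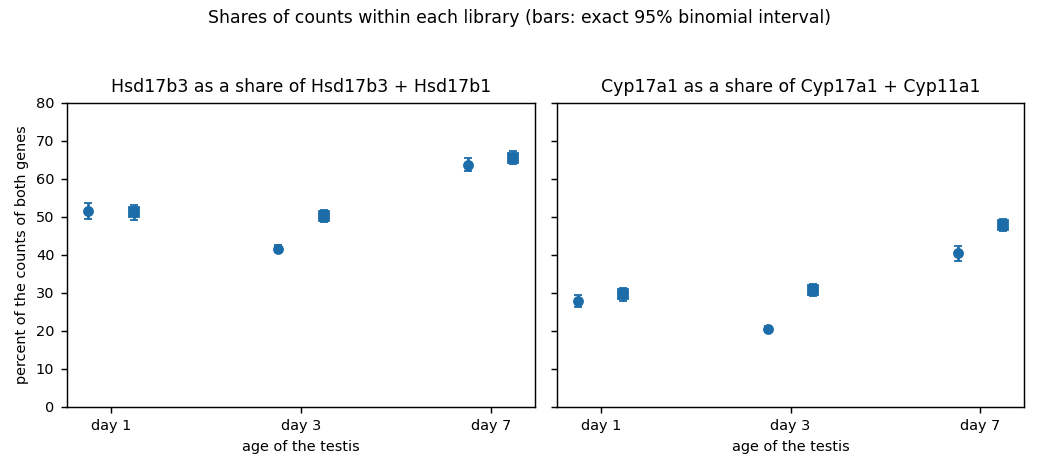
Points are single testis libraries (circle n1, square n2), with the share of counts in percent on the vertical axis and bars showing the exact binomial 95% interval. Left is Hsd17b3 as a share of Hsd17b3 and Hsd17b1, right is Cyp17a1 as a share of Cyp17a1 and Cyp11a1. Both shares are highest in the 2 day 7 libraries, at 63.7% and 65.5% and at 40.3% and 47.8%.

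In the comparison of leptotene/zygotene spermatocytes with day 7 testis, 8 of the 10 genes were called lower by edgeR and none higher, and 3 of the 8 had passed the filter only through whole testis. Of all tested genes 36.5% were higher and 42% lower, so most of the table was called. The split depended on scaling: with plain library sizes 4183 genes were higher and 9928 lower, in place of 6163 higher and 7082 lower, and the median log2 fold change of all genes moved to -1.71, against -0.308. The median of the 10 genes was -5.51. Hsd3b1 had the largest fitted decrease of the 10, with a log2 fold change of -8.58 ± 0.43 and an edgeR adjusted p of 3.54e-07. Its leptotene/zygotene mean, from 6 counts over both libraries, was 0.341% of its day 7 mean. Cyp11a1 had -6.57 ± 0.52 (edgeR adjusted p = 2.56e-06) and Cyp17a1 -5.71 ± 0.66 (3.06e-05), at 12 and 16 counts over both leptotene/zygotene libraries. Hsd17b3, at 5 counts over both leptotene/zygotene libraries, had -8.06 ± 0.46.

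For Hsd17b1 and Lhcgr, which had 2 and 3 counts in leptotene/zygotene cells, the ratio of depth-scaled counts to day 7 testis is given with its exact 95% interval, for counting error only. It was 0.00276 (0.000334 to 0.00998) for Hsd17b1 and 0.0225 (0.00462 to 0.0663) for Lhcgr. Star and Insl3 had the smallest decreases among the 8. Star had -3.10 ± 0.57 (edgeR adjusted p = 0.000663) and kept 14.1% of its day 7 mean. Its log2 fold change was -4.14 without leptotene/zygotene n1 and -2.17 without n2. Insl3 had -3.43 ± 0.77 (0.00236) and kept 10.8%, at 11 counts over both leptotene/zygotene libraries. Without leptotene/zygotene n2 the Insl3 call was lost, at an edgeR adjusted p of 0.0588. Srd5a1 had -0.61 ± 0.35 (edgeR adjusted p = 0.131) and became a call with plain library sizes (-2.02) or upper-quartile factors (-1.01). Relative to the median of all genes it was at -0.303, -0.312 and -0.313 under TMM, plain and upper-quartile scaling. For Hsd3b6 the ratio was 0.953 (0.166 to 3.82), from 3 counts against 9 in day 7 testis.

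The genes did not keep their proportions in the fractions. Star made up 84.6% and 77.1% of the counts of Star and Cyp11a1 together in leptotene/zygotene cells and 84.6% and 83.1% in pachytene cells, and between 20.9% and 37.2% in the 6 testis libraries. As a measurement on single libraries, the lowest bound of the exact 95% intervals in the 4 spermatocyte libraries was 59.9%, and the highest bound in testis was 38.8%. Hsd3b6 made up 52.8% and 34.3% of the counts of Hsd3b6 and Hsd3b1 in pachytene cells, and at most 0.163% in any testis library.

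Pachytene cells were compared with leptotene/zygotene cells as labelled. The leptotene/zygotene libraries held more spermatid marker RNA than the pachytene libraries, so the comparison is not read as a course through meiosis. By edgeR's test Hsd3b1 and Insl3 were higher in pachytene cells, and none of the 10 was lower. Hsd3b6 was called higher as well and is given as a description. Of all tested genes 9.03% were higher and 13.2% lower (1524 and 2220 genes), and with plain library sizes 3729 were higher and 1107 lower. Hsd3b1 had a log2 fold change of 2.65 ± 0.49 (edgeR adjusted p = 0.00591), from 40 counts against 6 in leptotene/zygotene cells. Hsd3b6 had a ratio of 10.2 (exact interval 3.19 to 52.2) from 31 counts in pachytene cells and 3 in leptotene/zygotene cells. It passed the low-count filter only through pachytene cells, so its call is not independent of the filter. Insl3 had 2.59 ± 0.80 (edgeR adjusted p = 0.0449), from 77 counts against 11.

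Cyp17a1 at 2.03 ± 0.68 (edgeR adjusted p = 0.059), Star at 1.63 ± 0.57 (0.07) and Cyp11a1 at 1.60 ± 0.57 (0.0728) did not pass, and Srd5a1 was at 0.05 ± 0.36. Star and Cyp17a1 became calls without leptotene/zygotene n1 (edgeR adjusted p = 0.00557 and 0.0137), and these 2 and Cyp11a1 did so with plain library sizes. The median of the 10 was 1.61 and that of all tested genes -0.0621. The ratio was 1.48 (0.17 to 17.7) for Hsd17b1 and 0.329 (0.00628 to 4.1) for Lhcgr, at 1 to 3 counts a fraction. Among 11 Sertoli markers tested, Clu (clusterin, 1.83 ± 0.47, edgeR adjusted p = 0.0234) and Inha (inhibin alpha, 1.00 ± 0.30, 0.0401) were also higher in pachytene cells, and none was lower. Among other somatic lists, 3 of 6 macrophage markers were lower and none higher, with a list median of -1.99. Of 6 peritubular and 6 endothelial markers 1 each was lower (Actg2 and Vwf) and none higher. The medians of these 2 lists were -0.62 and -0.000734. Actg2 and Vwf had both been called higher in leptotene/zygotene cells than in day 7 testis. Over all tested genes 13.2% were lower and 9.03% higher in pachytene cells. The part of somatic cells in the result was not tested. None of the 10 genes was called without leptotene/zygotene n2 or in a fit of the 2 fractions alone, and the Hsd3b6 call was also lost without pachytene n1. The Insl3 call was also lost without either day 1 library, either day 7 library, leptotene/zygotene n1 or pachytene n2, and under DESeq2 median-ratio size factors (edgeR adjusted p = 0.0535).

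Since spermatid markers were high in the leptotene/zygotene libraries, the pachytene means are also given as percentages of the day 7 means, without a test. They were 36% for Star, 3.2% for Cyp11a1, 7.79% for Cyp17a1, 1.65% for Hsd3b1, 0.28% for Hsd17b3, 0.398% for Hsd17b1 and 0.613% for Lhcgr. Srd5a1 was at 68.3% and Insl3 at 54.2%. The Insl3 value rested on 1 library: pachytene n1 and n2 were at 21.4% and 86.9% of the day 7 mean for Insl3, at 42.3% and 29.8% for Star, and at 78.9% and 57.7% for Srd5a1.

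The other genes of the pathway were taken from lists. Which stages brought the genes of these and the marker lists through the low-count filter was not examined. For list genes near 0 on 1 side, the filter itself may have selected the contrast between testis and spermatocytes. Their p there carry this limit. Of 11 regulators of steroidogenesis, 10 were lower and 1 higher in leptotene/zygotene cells than in day 7 testis. Over all tested genes 42% were lower and 36.5% higher there. Nr5a1, which codes for the nuclear receptor SF-1 that drives many steroidogenic genes, had 345.6 and 337.9 CPM on day 1, 408.1 and 328.2 CPM on day 3, and 265 and 266.2 CPM on day 7. It had 5.837 and 2.305 CPM in leptotene/zygotene cells and 11.39 and 5.782 CPM in pachytene cells. Nr5a1 is also expressed in Sertoli cells. Its log2 fold change was -6.29 ± 0.49 for leptotene/zygotene over day 7 (edgeR adjusted p = 2.41e-06), and it passed no test between the ages of testis. Gata4, a transcription factor of gonadal somatic cells, had -6.80 ± 0.60 and Nr2f2 (COUP-TFII, a marker of interstitial cells) had -5.46 ± 0.62, with edgeR adjusted p of 5.05e-06 and 2.77e-05.

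Within the testis, Lhx9, a LIM homeobox gene of the gonad, was the 1 regulator past the test in the fit of all stages. It fell on day 7 relative to day 3 (-1.52 ± 0.22, edgeR adjusted p = 0.0167) and relative to day 1 (-1.76 ± 0.22, 0.00746). In the fit of the 6 testis libraries, 4 of the 11 regulators were lower on day 7 than on day 3, and 4 were lower and 1 higher than on day 1. Over the whole table that fit called 1120 genes lower and 1006 higher, and 1587 lower and 1375 higher. In pachytene cells, 2 regulators were higher and 1 lower than in leptotene/zygotene cells, where 9.03% and 13.2% of all tested genes were. Nr0b1, which codes for the SF-1 repressor DAX1, had 2.52 ± 0.63 (edgeR adjusted p = 0.0211), Lhx9 had 1.09 ± 0.28 (0.023), and Nr4a1, an orphan receptor induced by LH in Leydig cells, had -1.68 ± 0.30 (0.00516).

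Of 13 hormone receptors and cAMP signalling genes, 8 were lower and 3 higher in leptotene/zygotene cells than in day 7 testis. The shares over all tested genes were 42% lower and 36.5% higher. Rxfp2, the receptor for INSL3, was higher in the spermatocyte fractions than in whole testis. It had 4.684 and 1.639 CPM on day 1, 0.7327 and 3.663 CPM on day 3, and 0.3862 and 0.06143 CPM on day 7. In leptotene/zygotene cells it had 41.35 and 49.6 CPM and in pachytene cells 38.86 and 31.39 CPM, above every testis library. Its log2 fold change was 7.57 ± 0.94 for leptotene/zygotene over day 7 (edgeR adjusted p = 4.99e-05), and -0.38 ± 0.65 for pachytene over leptotene/zygotene (0.736). Ptch1 (hedgehog receptor, -5.96 ± 0.65), Pdgfra (-5.90 ± 0.66) and Prlr (prolactin receptor, -5.46 ± 0.74) were lower, with edgeR adjusted p of 2.05e-05, 2.55e-05 and 9.04e-05.

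Of 9 electron donors and cholesterol carriers, 6 were lower and none higher in leptotene/zygotene cells than in day 7 testis. The shares over all tested genes were 42% lower and 36.5% higher. Fdxr, the reductase that feeds electrons to CYP11A1, had a log2 fold change of -4.25 ± 0.32 (edgeR adjusted p = 2.13e-06), and Tspo, a protein of the outer mitochondrial membrane, had -4.58 ± 0.70 (0.000192). In the testis, Fdxr averaged 136.3 CPM on day 1, 214.5 CPM on day 3 and 101.9 CPM on day 7, the same order of ages as Hsd17b1, and the difference of day 7 from day 3 was -1.07 ± 0.27 (edgeR adjusted p = 0.0854). Cyb5, cytochrome b5, which aids the lyase step of CYP17A1, was the 1 gene of the list that was higher in pachytene than in leptotene/zygotene cells (1.09 ± 0.30, 0.0274).

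Of 21 other steroid enzymes, 12 passed the filter, and 9 of them were lower and 2 higher in leptotene/zygotene cells than in day 7 testis. Over all tested genes 42% were lower and 36.5% higher. Hsd17b12 had -4.33 ± 0.36 (edgeR adjusted p = 3.69e-06), Hsd17b10 had -4.96 ± 0.49 (1.15e-05) and Hsd11b2, which inactivates glucocorticoids, had -5.96 ± 0.60 (2.26e-05). Hsd11b2 averaged 0.2933 CPM in leptotene/zygotene cells and 11.32 CPM in day 7 testis, so its call there may not be independent of the filter. In the fit of all stages Hsd11b2 was also the 1 gene of the list past the test between ages, lower on day 7 than on day 1 (-1.50 ± 0.33, 0.0464). DESeq2 called 2 of 19 genes of the list lower there, and the fit of the 6 testis libraries called 1 of 10 higher and 1 lower. Over the whole table DESeq2 called 442 genes higher and 1080 lower, and the fit of the 6 testis libraries 1375 and 1587. The 2 genes higher in leptotene/zygotene cells than in day 7 testis were named after their values were seen. Aromatase, Cyp19a1, had 1.946 and 4.609 CPM in leptotene/zygotene cells against 0 counts in day 7 testis. Hsd17b2 had 0.9728 and 2.405 CPM against 0 and 0.1229 CPM. Both stayed below 5 CPM in every library.

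Of 23 cholesterol supply genes tested, 13 were lower and 7 higher in leptotene/zygotene cells than in day 7 testis, where 42% and 36.5% of all tested genes were, and with plain library sizes 17 were lower and 3 higher. Lipe, hormone-sensitive lipase, averaged 843.6 CPM in leptotene/zygotene cells and 15.26 CPM in day 7 testis (5.79 ± 0.29, edgeR adjusted p = 3.38e-07), and Fdft1, squalene synthase, averaged 799.8 CPM and 40.14 CPM (4.32 ± 0.30, 1.27e-06). Ebp, a sterol isomerase, was lower (-4.73 ± 0.48, 1.32e-05). In pachytene over leptotene/zygotene cells 6 genes were lower and 1 higher (3 lower and 5 higher with plain library sizes), with Lipe at -2.93 ± 0.25 (edgeR adjusted p = 0.000747) and Cyp51 at -1.23 ± 0.25 (0.00781).

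Of 7 other Leydig cell markers, 5 were lower and none higher in leptotene/zygotene cells than in day 7 testis. Over all tested genes 42% were lower and 36.5% higher. The lower genes included Nr5a1 and Prlr, which were also counted among the regulators and the receptors above. The summed level of the 7 markers was 22.86 and 8.016 CPM in leptotene/zygotene cells, 34.59 and 22.17 CPM in pachytene cells, and between 498.3 and 798.3 CPM in testis. Nr5a1 alone averaged 265.6 CPM on day 7, where the sums were 498.3 and 509.4 CPM. Thbs2 had the largest decrease among the markers over 5 CPM (-6.55 ± 0.40, edgeR adjusted p = 6.92e-07). Ptgds, prostaglandin D synthase, also fell within the testis. It averaged 12.32 CPM on day 7, against 65.63 CPM on day 3 (-2.41 ± 0.28, edgeR adjusted p = 0.00921) and 85.8 CPM on day 1 (-2.80 ± 0.28, 0.00527). It was also higher in pachytene than in leptotene/zygotene cells (2.77 ± 0.39, 0.00184). Crhr1, the corticotropin-releasing hormone receptor, was lower on day 7 than on day 1 (-2.16 ± 0.43, 0.031). All 11 Sertoli markers tested were lower in leptotene/zygotene cells than in day 7 testis, with a median of -5.26, close to the -5.51 of the 10 genes.

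**Figure D4:**
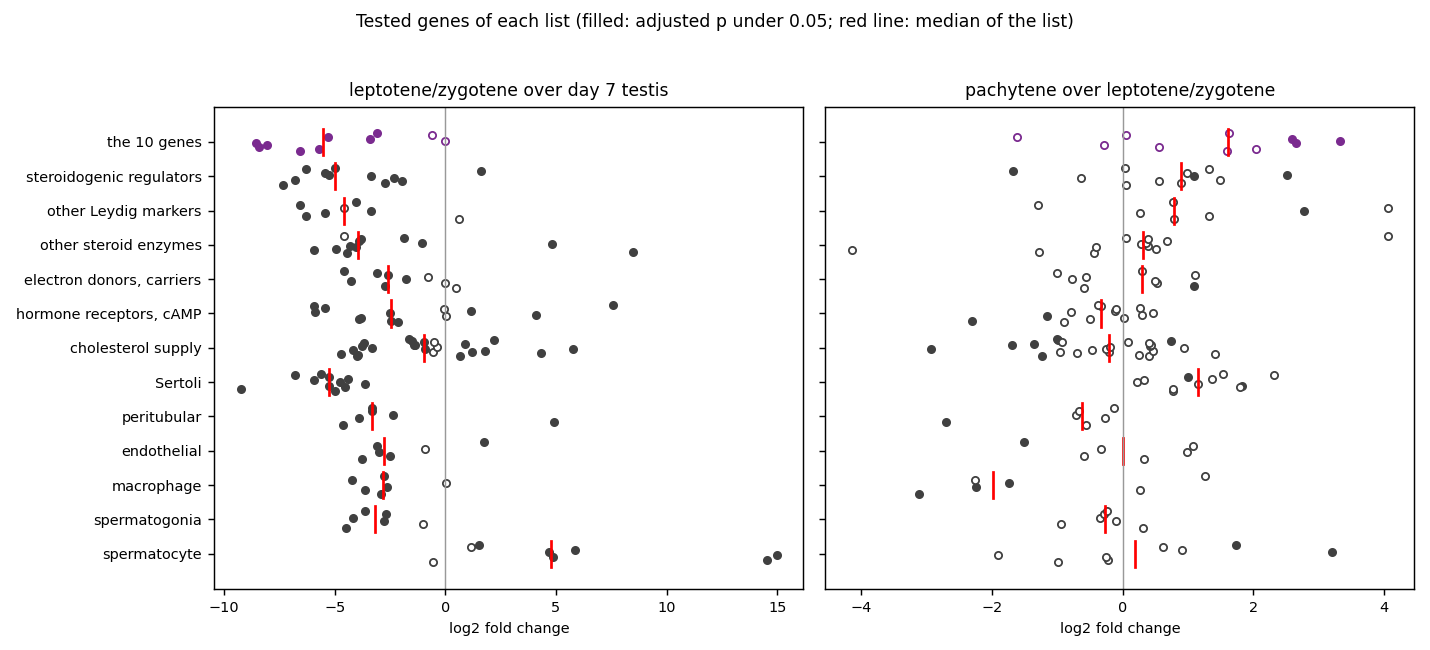
Each point is a tested gene of a list, with its log2 fold change on the horizontal axis for leptotene/zygotene over day 7 testis (left) and pachytene over leptotene/zygotene (right). Filled points have an edgeR adjusted p under 0.05, and red lines are medians of the tested genes. On the left the 10 genes, the regulators and the Sertoli markers have medians of -5.51, -4.99 and -5.26. On the right the medians of the 10 genes and the Sertoli markers are 1.61 and 1.16, and those of the macrophage, peritubular and endothelial markers are -1.99, -0.62 and -0.000734.

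Adrenal genes were examined because adrenal tissue shares Star, Cyp11a1 and Hsd3b1 with Leydig cells. Summed over 6 adrenal cortex genes, the level was 30.04 and 34.92 CPM on day 3, compared with 6.841 to 16.27 CPM on days 1 and 7. Cyp21a1, the adrenal 21-hydroxylase, had 2.465 and 0.604 CPM on day 1, 11.16 and 14.81 CPM on day 3, and 1.49 and 2.457 CPM on day 7, and no comparison of it passed the test (edgeR adjusted p = 0.465 for day 3 over day 1 and 0.112 for day 7 over day 3) in the fit of all stages. In the fit of the 6 testis libraries, 4 of 5 adrenal cortex genes tested were lower on day 7 than on day 3, and DESeq2 called 1 of 6 lower. Over the whole table DESeq2 called 554 genes lower and 411 higher there, and the fit of the 6 testis libraries 1120 lower and 1006 higher. Of the shared genes the fit of the 6 testis libraries called Cyp11a1 and Hsd3b1 lower but not Star. It also called Hsd17b1 lower. Cyp21a1 has a near-identical pseudogene, so its level is uncertain. Pnmt, which makes adrenaline in the adrenal medulla, was lower on day 7 than on day 3 (-5.33 ± 0.72, edgeR adjusted p = 0.0131) and than on day 1 (-4.10 ± 0.69, 0.0203), while the medullary genes Th and Dbh had at most 0.2588 CPM in any testis library. Chga, of the same medullary list, went the other way between day 1 and day 7. It was called higher on day 7, averaging 3.414 CPM against 0.6286 CPM on day 1. The part of adrenal cells in the levels of the shared genes was not tested.

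The genes whose profiles were most like those of the 10 were sought by Pearson correlation of log2(CPM + 1) over the 10 libraries, among 10195 tested genes that averaged 10 CPM or more in testis. These correlations are descriptions: the libraries fall into testis and spermatocytes, and 3624 of those genes (35.5%) had r above 0.9 with the mean profile. Nearest to the mean profile were Atraid, Elmo2, Mpzl1, Acad9, Tab1, Slc39a7, Itgb5, Prkce, Npl and Tia1, with r between 0.992 and 0.995. The nearest genes were Fkbp14 for Star (0.985), Pdlim2 for Cyp11a1 (0.997), Reck for Cyp17a1 (0.994), Shc1 for Hsd3b1 (0.998), Figf for Hsd17b1 (0.999), Mmp23 for Hsd17b3 (0.999), Phka1 for Lhcgr (0.992) and Pkp4 for Insl3 (0.969). Erlin2 was nearest to Hsd3b6 (0.979). Srd5a1 had the lowest top value, 0.921 with Hectd3, followed by Ngrn at 0.894 and Psma5 at 0.886.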

How the data were processed

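The authors deposited 1 table of gene counts for the 10 RNA libraries, with whole-number counts per gene that were not normalized. RNA was extracted with TRIzol and made into libraries with an Illumina TruSeq RNA kit, per the labels' protocols. BWA 0.7.8, Bowtie 0.12.7, HTSeq 0.6.1, edgeR 3.6.8 and the build mm9 are named, without roles, per the submitters' processing notes. Summary rows held 44.7% to 64.5% of each library's reads and were left out.

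Genes were filtered with edgeR 4.0.16 (filterByExpr, minimum count 10), scaled by TMM and tested by edgeR's quasi-likelihood test (R 4.3.3, limma 3.58.1) in 1 fit over all 5 stages, with Benjamini-Hochberg adjustment over 16872 genes. The fit was tested on simulated data, with 100 genes changed 2-fold and 100 changed 4-fold in each comparison. Of the 2-fold changes it recovered 4 for day 3 over day 1, 19 for day 7 over day 3 and 6 for day 7 over day 1. It recovered 14 for leptotene/zygotene over day 7 and 2 for pachytene over leptotene/zygotene. Of the 4-fold changes it recovered between 66 and 76. A gene that was not called may therefore still have changed 2-fold. The SE of a log2 fold change was taken as its size divided by the root of the F statistic. Alternatives were other scalings, no filter, DESeq2 1.42.0, fewer stages, each library left out, and the replicate number as a block. Replicates differed by more than sampling noise. The 10 small RNA libraries were not used. The 10 genes and all lists were chosen with earlier results of these data known. Named from each other list were up to 4 genes per comparison, by largest change among those called at 5 CPM or more, or up to 3 by level where none was. Some genes that this rule names are not reported here.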

Additional observations from a re-analysis of the deposited data

How the results depend on the processing

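The count of the 10 genes past the test was 0 for day 3 over day 1 under every alternative run. For day 7 over day 3 it was 1, with 3 in a fit of the 6 testis libraries and 0 to 1 with a library left out. For day 7 over day 1 it was 1, with 2 under DESeq2 median-ratio size factors or upper-quartile factors, 3 by the DESeq2 Wald test, 3 in the 6 testis libraries, 5 in the 2 stages alone and 0 to 3 with a library left out. For leptotene/zygotene over day 7 it was 8, with 9 under plain library sizes or upper-quartile factors and 7 to 8 with a library left out. For pachytene over leptotene/zygotene it was 3, with 6 under plain library sizes, 5 without the low-count filter, 2 under DESeq2 median-ratio size factors, 0 in the 2 stages alone and 0 to 4 with a library left out. The cause was not tested.

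With the replicate number as a block over all stages the counts were 0, 1, 1, 8 and 3 in the same order. With a block within the spermatocyte fractions alone, chosen after seeing the data, they were 0, 3, 3, 8 and 5, with Star (adjusted p = 0.00474) and Cyp17a1 (0.0214) added in pachytene over leptotene/zygotene. Deviations of n1 and n2 from their stage means correlated between the fractions (r = 0.746), and lay between -0.153 and 0.00471 for all other pairs of stages. No label says that the number marks a shared source, so the libraries were not treated as paired.

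Over the whole table, day 3 over day 1 gave 0 calls, 79 by DESeq2, 7 in the 6 testis libraries, 85 with the block within the fractions, and 0 to 35 with a library left out. Day 7 over day 3 gave 252, with 437 without the filter, 965 by DESeq2, 2126 in the testis libraries, 1019 in the 2 stages alone, 2042 with the block within the fractions, and 0 to 632 with a library left out. Day 7 over day 1 gave 567, with 1522, 2962, 6800 and 2946 by DESeq2, in the testis libraries, in the 2 stages alone and with the block within the fractions, and 0 to 1143 with a library left out. Pachytene over leptotene/zygotene gave 3744, with 930 in the 2 stages alone, 6366 with the block within the fractions, and 2076 to 5071 with a library left out. For leptotene/zygotene over day 7, 6163 genes were higher and 7082 lower, and 6766 and 6395 under median-ratio size factors.

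Directions that turned were of small changes that passed no test. Hsd3b6 for leptotene/zygotene over day 7 was -0.03, and 0.24 under median-ratio size factors, 0.017 without the filter, 0.34 by DESeq2 and 0.85 with the block within the fractions. Hsd17b3 for pachytene over leptotene/zygotene was -0.29, and 0.32 under plain library sizes, and Srd5a1 there was 0.05, and -0.00052 with the block within the fractions. With a library left out, log2 fold changes of both signs occurred. They ranged for day 3 over day 1 from -0.36 to 0.26 for Cyp11a1, -0.95 to 0.69 for Hsd3b6, -0.66 to 0.40 for Insl3, -0.48 to 0.14 for Lhcgr, -0.12 to 0.37 for Srd5a1. They ranged for day 7 over day 3 from -0.60 to 0.49 for Cyp17a1, -0.37 to 0.38 for Lhcgr, -0.26 to 0.20 for Srd5a1. They ranged for day 7 over day 1 from -0.90 to 0.20 for Cyp17a1, -0.52 to 0.23 for Lhcgr, -0.13 to 0.32 for Srd5a1. They ranged for leptotene/zygotene over day 7 from -0.62 to 0.84 for Hsd3b6. They ranged for pachytene over leptotene/zygotene from -0.96 to 5.04 for Hsd17b3, -0.18 to 0.37 for Srd5a1.

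Depth limits the spermatocyte values of Hsd17b1, Hsd17b3, Lhcgr and Hsd3b6, which rest on 31 counts or fewer per fraction. In leptotene/zygotene cells it also limits Hsd3b1, Insl3, Cyp11a1 and Cyp17a1, at 6, 11, 12 and 16 counts over both libraries. Least precise is leptotene/zygotene n1, where 3 counts are 1.46 CPM. With 2 libraries a stage and 5 residual degrees of freedom, leaving 1 out leaves a single library assumed to vary like the others.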
